A study of Mus musculus with 17 samples.

Results

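Transcripts of 4 machines of the inner mitochondrial membrane were followed in the newborn mouse heart: complex I (NADH dehydrogenase), complex II (succinate dehydrogenase), complex III (the cytochrome bc1 complex) and complex V (ATP synthase). Members were all genes with a RefSeq messenger RNA entry whose mouse symbol begins with Nduf, Uqcr or Atp5, or is Sdha, Sdhb, Sdhc or Sdhd. The rule reads symbols alone, but it was set with earlier results of these data known. The rule found 75 genes among the 16569 named genes of the study: 44 for complex I (8 of them assembly factors, which build the complex but are not part of it), 4 for complex II, 8 for complex III and 17 for complex V. The other 2, Ndufa4 and Ndufa4l2, carry complex I names, although the Ndufa4 protein is now placed in complex IV, and they were kept apart. The study sequenced total RNA from the right ventricle (RV) and the left ventricle (LV) of male mice of the strain labelled C57Bl/6, with no treatment, with strand-specific paired-end libraries. The ages were postnatal day 0 (P0), before the ductus arteriosus closes, day 3 (P3), which the labels call a transition, and day 7 (P7), by which most heart muscle cells have reached their final differentiation. There were 3 libraries for RV P0, RV P3, LV P7, LV P3 and LV P0 and 2 for RV P7, described as biological replicates. How many animals gave each library is not stated, so the p-values measure the spread between these libraries.

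Complex I takes electrons from NADH through a flavin and a chain of iron-sulfur clusters in its matrix arm, and its membrane arm pumps protons. Complex II feeds electrons from succinate without pumping, complex III passes electrons from ubiquinol to cytochrome c, and complex V lets protons flow back through a ring of c subunits to make ATP. In rodents the first days after birth are known as the time when heart muscle turns from glycolysis to fatty acid oxidation. The membrane arm core of complex I, cytochrome b and 2 membrane subunits of ATP synthase are encoded by mitochondrial DNA and are not members. Cytochrome c1 (Cyc1), a nuclear subunit of complex III, falls outside the naming rule, so counts and shares of complex III leave it out.

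Values were RPKM, reads per kilobase of transcript and per library size, as deposited by the authors, and levels of different genes are compared on this per-length scale. Library sizes, recovered from the steps between low values, were 27561845 to 41061058 reads. The share of each library that fell in the listed entries averaged 70.1% at P0, 61.1% at P3 and 56.2% at P7 in the RV, and 71.2%, 62.8% and 56.5% in the LV at the same ages. Beside this, the median of the 10668 tested entries changed by log2 -0.29 in the RV and -0.31 in the LV between P7 and P0, and by -0.02 in both chambers once each library was scaled to its upper quartile. Changes are given on the deposited scale, log2(RPKM + 1), beside the upper-quartile value, which reads a change against the bulk of the transcriptome. A member is said to rise or fall where its Benjamini-Hochberg adjusted p in limma was under 0.05 over all 10668 tested entries. In 7 of the 17 libraries the Nnt gene, whose loss marks one C57BL/6 substrain, was under 1 RPKM: replicates 2 and 3 of LV P3, LV P7 and RV P3, and replicate 2 of RV P7. No P0 library was among them, and results without these libraries are described beside the main ones.

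The members stood among the most abundant transcripts of the ventricle. Of the 75, 60 averaged at least 100 RPKM over the 17 libraries, a level that 2.53% of all 20624 entries reached. The highest were Atp5b, the catalytic beta subunit of ATP synthase, at a mean of 2844 RPKM (libraries from 2516 to 3265), Uqcr11, a small subunit of complex III, at 2201 RPKM (1743 to 2847), and Atp5a1, the alpha subunit, at 1567 RPKM (1404 to 1780.1). The ranges of Uqcr11 and Atp5a1 overlapped. By median over the genes of a complex, complex V stood at 839 RPKM, complex III at 471, complex II at 295 and complex I at 267 RPKM. The complex I assembly factors were far lower, with a median of 16.2 RPKM and a highest gene mean of 46.1 RPKM, that of Ndufaf2. Ndufaf8, which in humans assists NDUFAF5, was the only member left out by the filter of 1 RPKM in 2 libraries, at 0 to 0.325 RPKM.

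A few subunits had levels far under those of their partners. Ndufs1, the largest iron-sulfur subunit of complex I, averaged 4.78 RPKM in the higher of its 4 listed entries, Uqcr10 averaged 8.42 RPKM and Atp5pb, subunit b of the peripheral stalk, 31.7 RPKM. RefSeq holds 4 transcripts of Ndufs1, 3 of Uqcr10 and 2 of Atp5pb. The sources used here do not say how reads shared by several transcripts were assigned, so the value of such an entry may leave out part of its gene. Other members overlap a gene on the opposite strand, among them Atp5md (Taf5), Ndufa4l2 (Shmt2), Uqcrq (Gdf9), Ndufa1 (Rnf113a1), Ndufa13 (Tssk6) and Ndufb11 (Rbm10), and whether strand was used in counting is not given either.

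Between P7 and P0 some members rose and others fell in each chamber, and which direction held more calls depended on the scaling. In the RV, 1 member rose and 26 fell of the 74 tested on the deposited scale, with a median change of log2 -0.14, while 9.81% of all tested entries rose and 46.1% fell. In the LV, 10 rose and 15 fell, with a median of -0.01, against 11.8% and 53.0% of all entries. Upper-quartile scaling turned the balance round. It called 21 members higher and 5 lower in the RV (19.8% and 20.6% of all entries), with a median of 0.19, and 40 higher and 2 lower in the LV (24.4% and 25.3% of all entries), with a median of 0.34. Scaling each library to the same total over the listed entries gave 25 members higher and 6 lower in the RV. In the LV it gave 36 higher and 3 lower. Of all 10668 tested entries, that scaling called 2018 higher and 2039 lower in the RV and 2109 and 3206 in the LV. The members' median lay above that of all entries in both chambers, and the number of calls in each direction depended on the scaling, as the plot of calls by scaling shows.

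**Figure D1:**
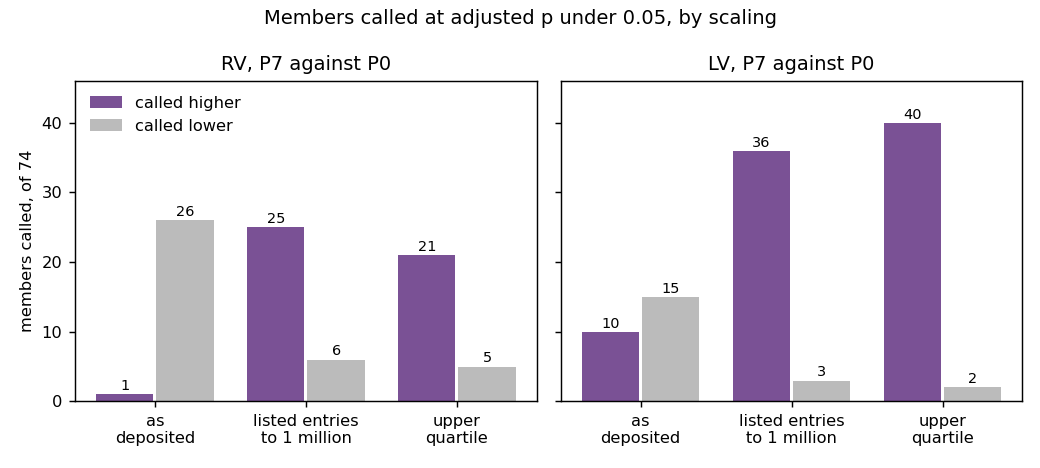
Number of the 74 tested members called at an adjusted p under 0.05 for P7 against P0 (vertical axis) under 3 scalings (horizontal axis), in the RV (left) and the LV (right). Called higher are 1, 25 and 21 members in the RV and 10, 36 and 40 in the LV; called lower are 26, 6 and 5 in the RV and 15, 3 and 2 in the LV.

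Calls that held under all 3 scalings are listed here and, further on, for the steps between ages. The share of all tested entries that held in the same way was not counted. In the LV these were the 10 that rose on the deposited scale (Ndufa1, Ndufa3, Ndufa13 and Ndufb11 of the complex I membrane arm, Ndufa5 and Ndufv3 of its matrix arm, Uqcrq, Atp5g1, Ndufa4 and Ndufa4l2) and 2 that fell (Atp5md and Ndufaf5). In the RV 1 rose (Uqcrc1) and 5 fell (Atp5md, Atp5mpl, Ndufaf3, Ndufaf5 and Ndufaf6). Atp5g1, Ndufa3, Ndufa4l2, Atp5md and Ndufaf5 in the LV, and the 5 that fell in the RV, kept their call under each of the 13 (LV) or 12 (RV) alternatives tried, single libraries left out included. Leaving out the 7 libraries low in Nnt leaves 1 library at LV P7 and at RV P7. Fewer members were then called in each direction in both chambers, from a fit with fewer libraries. Without RV P7 replicate 1, 11 members fell in the RV, and the number that rose there was 0 without RV P0 replicate 1 and 4 without RV P0 replicate 2. In the LV the number that rose was 6 without LV P0 replicate 1 and 16 without LV P0 replicate 2.

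**Figure D2:**
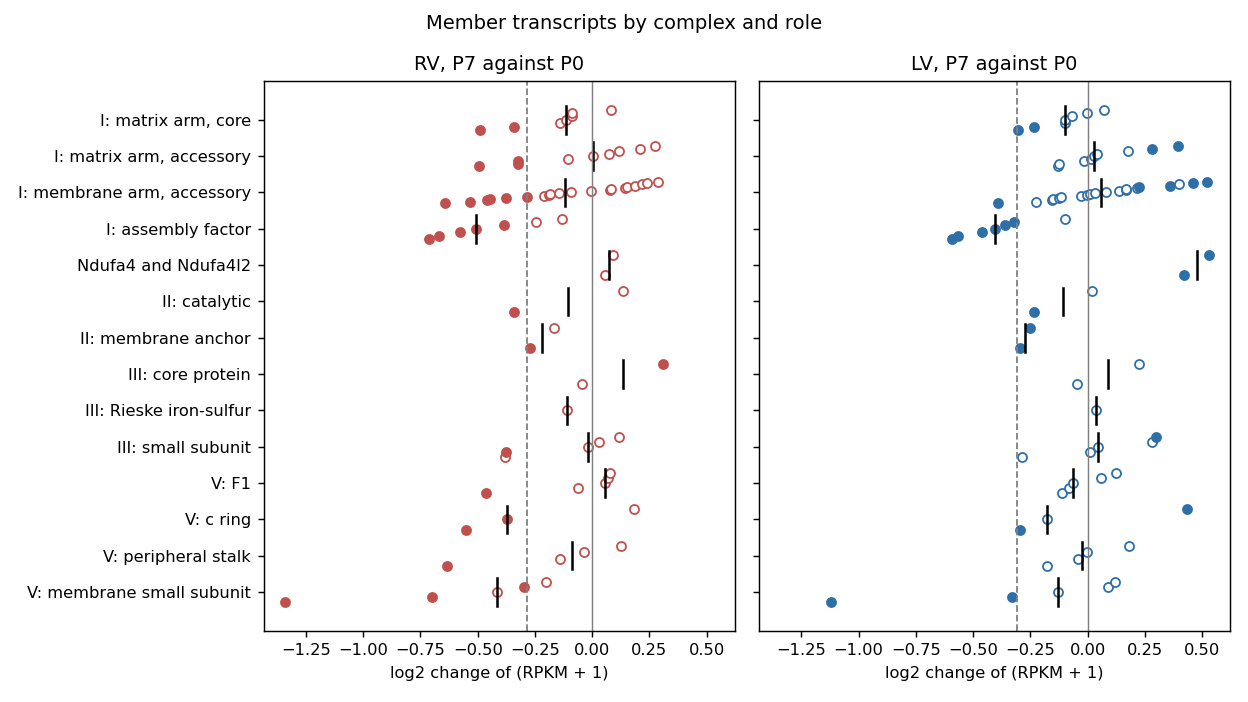
Log2 change of RPKM + 1, P7 against P0 (horizontal axis), for the 74 tested members by complex and role (rows), in the RV (left) and the LV (right). Each circle is a gene, filled where its adjusted p was under 0.05, black bars are medians of a row, and the dashed line is the median of all 10668 tested entries (-0.29 in the RV, -0.31 in the LV); complex I assembly factors lie at a median of -0.51 in the RV and -0.40 in the LV, left of the subunits.

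The share of each complex in the summed RPKM of the members does not depend on the scaling, and it was compared as a description without a test. Complex II held 4.11% to 4.33% of member RPKM at RV P0, 3.61% to 3.69% at RV P3 and 3.58% to 3.87% at RV P7. In the LV it held 4.15% to 4.41% at P0, 3.55% to 3.92% at P3 and 3.29% to 3.66% at P7. All P3 and P7 libraries thus lay below all P0 libraries of their chamber. Complex V averaged 40.7% ± 0.60 (SD) at RV P0, 40.1% ± 0.09 at RV P3 and 39.2% ± 0.98 at RV P7, and 41.1% ± 0.27, 40.7% ± 0.51 and 38.8% ± 0.63 at the same ages of the LV. Its P7 and P0 libraries did not overlap in either chamber. The P7 libraries of complex III lay above its P0 libraries: the RV averaged 15.5% ± 0.44, 15.1% ± 0.14 and 16.5% ± 0.48 and the LV 15.6% ± 0.32, 15.2% ± 0.30 and 16.7% ± 0.54 at P0, P3 and P7. Complex I took its highest share at RV P3, 37.2% ± 0.15, against 35.7% ± 0.75 at RV P0. By mean over the libraries, Uqcr11 was the most abundant complex III gene, followed by Uqcrb and Uqcrh.

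**Figure D3:**
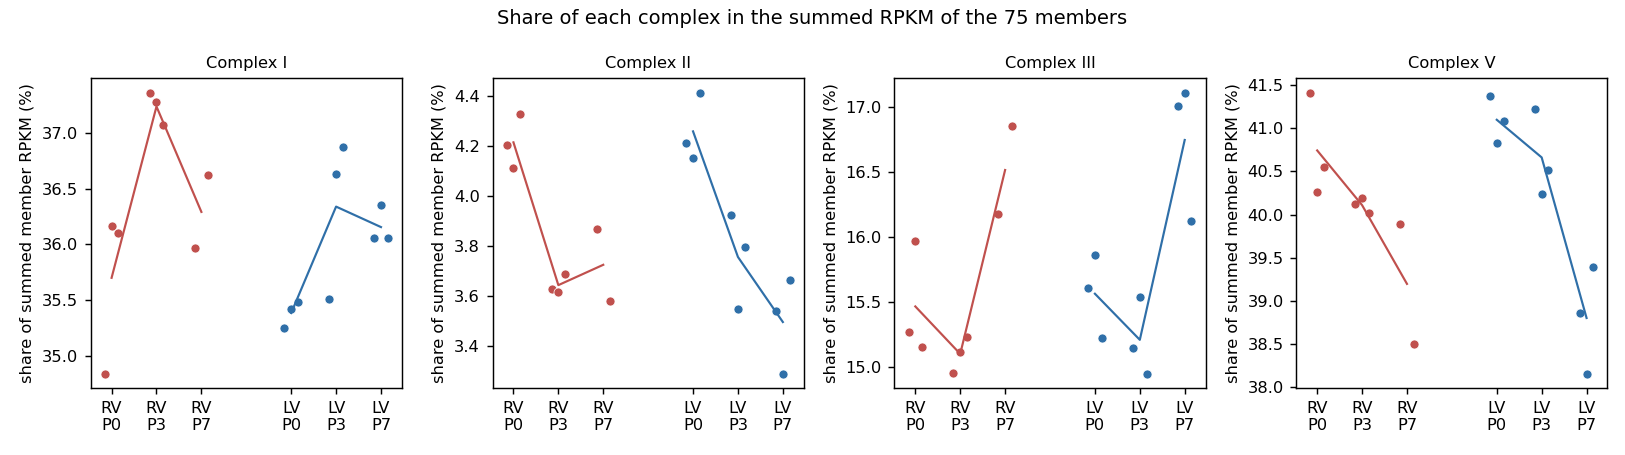
Share of each complex in the summed RPKM of the 75 members, in percent (vertical axes differ and do not start at 0), by chamber and age. Points are libraries (3 per group, 2 for RV P7) and lines join group means; complex II is lower in every P3 and P7 library than in any P0 library of its chamber, and complex III is highest at P7.

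As a part of everything listed, the members summed to 9.64% ± 0.49 of the RPKM total at RV P0, 10.02% ± 0.22 at RV P3 and 11.4% ± 0.27 at RV P7, and 8.99% ± 0.69, 10.3% ± 0.60 and 11.2% ± 0.41 at the same ages of the LV. The P7 libraries lay above the P0 libraries in both chambers. In RPKM itself the sum was 34713 and 39587 at RV P7, within or below the 38123 to 40237 of RV P0, and 35777 to 38432 at LV P7, which overlapped the 34071 to 39293 of LV P0.

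Within complex I, the 7 core subunits that carry the flavin and the iron-sulfur clusters had few calls. On the deposited scale 2 of the 7 fell in each chamber, Ndufs1 and Ndufs3, and none rose. After upper-quartile scaling none fell and 1 (RV) or 3 (LV) rose. Among all entries 46.1% (RV) and 53.0% (LV) fell on the deposited scale, and 19.8% and 24.4% rose after upper-quartile scaling. Ndufs1, whose entry is low as given above, had 3.78 and 4.46 RPKM at RV P7 and 4.80, 5.51 and 6.18 RPKM at RV P0 (log2 -0.34 ± 0.13 (SE), adjusted p = 0.0295). It had 3.88, 4.09 and 4.52 RPKM at LV P7 and 5.16, 5.11 and 5.80 RPKM at LV P0 (log2 -0.30 ± 0.11 (SE), adjusted p = 0.0271). Ndufs3, a core subunit of the matrix arm, stood at 276, 273 and 315 RPKM at P0, 203, 228 and 211 RPKM at P3 and 201 and 207 RPKM at P7 in the RV. In the LV it stood at 217, 228 and 268 RPKM at P0, 226, 226 and 217 RPKM at P3 and 224, 179 and 202 RPKM at P7. The RV libraries at P7 lay below those at P0 (log2 -0.49 ± 0.11 (SE), adjusted p = 0.000980), and the LV libraries overlapped (log2 -0.24 ± 0.10 (SE), adjusted p = 0.0409). After upper-quartile scaling the LV value was 0.12, with the sign reversed. Ndufv1, which binds NADH, gave log2 -0.09 ± 0.11 (SE), adjusted p = 0.519 in the RV and log2 -0.10 ± 0.10 (SE), adjusted p = 0.410 in the LV, and after upper-quartile scaling 0.24 and 0.26, the LV value called higher. Deposited log2 changes were -0.09 and -0.07 for Ndufv2, 0.08 and 0.07 for Ndufs7 and -0.14 and 0.00 for Ndufs8 in the RV and the LV, none of them called.

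The accessory subunits, which surround the core, were split. Of the 20 in the membrane arm 6 fell and none rose in the RV, while 1 fell and 4 rose in the LV. Of the 9 in the matrix arm 3 fell in the RV and 2 rose in the LV. Of all entries 9.81% rose and 46.1% fell in the RV and 11.8% rose and 53.0% fell in the LV. Upper-quartile scaling gave no accessory subunit lower in either chamber, and 11 of these 29 higher in the RV and 19 in the LV, beside 19.8% and 24.4% of all entries called higher.

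Ndufa3, a small membrane arm subunit, had the highest change of the complex I genes in both chambers. It stood at 511, 561 and 513 RPKM at P0, 575, 781 and 621 RPKM at P3 and 776, 806 and 695 RPKM at P7 in the LV, where every P7 library lay above every P0 library (log2 0.52 ± 0.13 (SE), adjusted p = 0.00169). In the RV it stood at 557, 738 and 627 RPKM at P0, 676, 695 and 653 RPKM at P3 and 665 and 910.1 RPKM at P7, and the P7 and P0 libraries overlapped (log2 0.29 ± 0.14 (SE), adjusted p = 0.0941). Ndufv3, a matrix arm subunit known from splice forms that differ between tissues, stood at 609.7, 850.4 and 687 RPKM at P0, 879.6, 869 and 959 RPKM at P3 and 839.8, 937 and 1031 RPKM at P7 in the LV (log2 0.39 ± 0.12 (SE), adjusted p = 0.00929). Its P7 libraries overlapped those of P0 in the LV by 1 library on each side, and the call was lost without LV P0 replicate 1, without LV P7 replicate 3 and without the libraries low in Nnt. In the RV its change was log2 0.21 ± 0.14 (SE), adjusted p = 0.203. Ndufb3 gave log2 0.40 ± 0.18 (SE), adjusted p = 0.0638 in the LV and log2 0.15 ± 0.21 (SE), adjusted p = 0.564 in the RV on the deposited scale.

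Ndufb6, another membrane arm subunit, fell in both chambers on the deposited scale and was not called after upper-quartile scaling. Its RV libraries were 143, 150.1 and 178 RPKM at P0, 116, 128 and 112 RPKM at P3 and 85.3 and 116 RPKM at P7 (log2 -0.64 ± 0.14 (SE), adjusted p = 0.000878). Its LV libraries were 109.9, 123 and 147 RPKM at P0, 134, 111 and 115 RPKM at P3 and 106, 88.2 and 92.9 RPKM at P7 (log2 -0.39 ± 0.13 (SE), adjusted p = 0.0109). All P7 libraries lay below all P0 libraries of their chamber, and after upper-quartile scaling the changes were -0.32 in the RV and -0.04 in the LV.

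Most assembly factors of complex I fell on the deposited scale. Of the 7 tested, 5 fell in the RV and 6 in the LV, and all 7 had a negative change in each chamber, while 46.1% (RV) and 53.0% (LV) of all entries fell. Their medians, -0.51 in the RV and -0.40 in the LV, lay below those of the 36 subunits, -0.10 and 0.01, and below the median of all entries. After upper-quartile scaling 3 (RV) and 1 (LV) were still called lower, beside 20.6% and 25.3% of all entries, and the medians were -0.20 and -0.07, against 0.23 and 0.37 for the subunits.

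Ndufaf5, which in humans hydroxylates an arginine of NDUFS7 during assembly, fell in both chambers under all 3 scalings. It stood at 11.7, 10.2 and 9.45 RPKM at P0, 6.92, 5.48 and 6.52 RPKM at P3 and 5.82 and 6.56 RPKM at P7 in the RV (log2 -0.67 ± 0.13 (SE), adjusted p = 0.000386). Its LV libraries were 9.65, 10.2 and 8.57 RPKM at P0, 8.72, 6.41 and 7.59 RPKM at P3 and 6.50, 5.43 and 6.29 RPKM at P7 (log2 -0.57 ± 0.12 (SE), adjusted p = 0.000433). No P7 library reached the lowest P0 library of its chamber. Ndufaf6, known in humans for an early step in building the membrane arm, stood at 8.82, 8.53 and 8.04 RPKM at P0, 4.53, 3.62 and 3.77 RPKM at P3 and 4.09 and 5.56 RPKM at P7 in the RV (log2 -0.71 ± 0.15 (SE), adjusted p = 0.000504). The LV had 8.46, 8.36 and 7.24 RPKM at P0, 4.11, 4.70 and 6.27 RPKM at P3 and 5.30, 4.48 and 5.20 RPKM at P7 (log2 -0.59 ± 0.13 (SE), adjusted p = 0.000677). The P3 libraries already lay below all P0 libraries in both chambers, P7 against P3 was not called in either, and the LV call at P7 was lost after upper-quartile scaling (log2 -0.28). Ndufaf3, which pairs with Ndufaf4 on the growing matrix arm, stood at 23.6, 24.9 and 26.6 RPKM at P0, 19.0, 17.1 and 16.6 RPKM at P3 and 15.6 and 17.3 RPKM at P7 in the RV (log2 -0.58 ± 0.10 (SE), adjusted p = 0.000101). Its level was 21.2, 21.8 and 20.8 RPKM at P0, 20.5, 17.1 and 20.2 RPKM at P3 and 16.3, 15.8 and 16.9 RPKM at P7 in the LV (log2 -0.36 ± 0.09 (SE), adjusted p = 0.00165). Its upper-quartile changes were -0.27 in the RV, still called, and -0.02 in the LV. Ndufaf7, a methyltransferase in humans, fell on the deposited scale, with log2 -0.39 ± 0.10 (SE), adjusted p = 0.00375 in the RV and log2 -0.40 ± 0.09 (SE), adjusted p = 0.000791 in the LV, and neither call held after upper-quartile scaling. Ndufaf2, an assembly factor related to the subunit Ndufa12, had the smallest differences, -0.13 in the RV and -0.10 in the LV, with overlapping libraries.

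**Figure D4:**
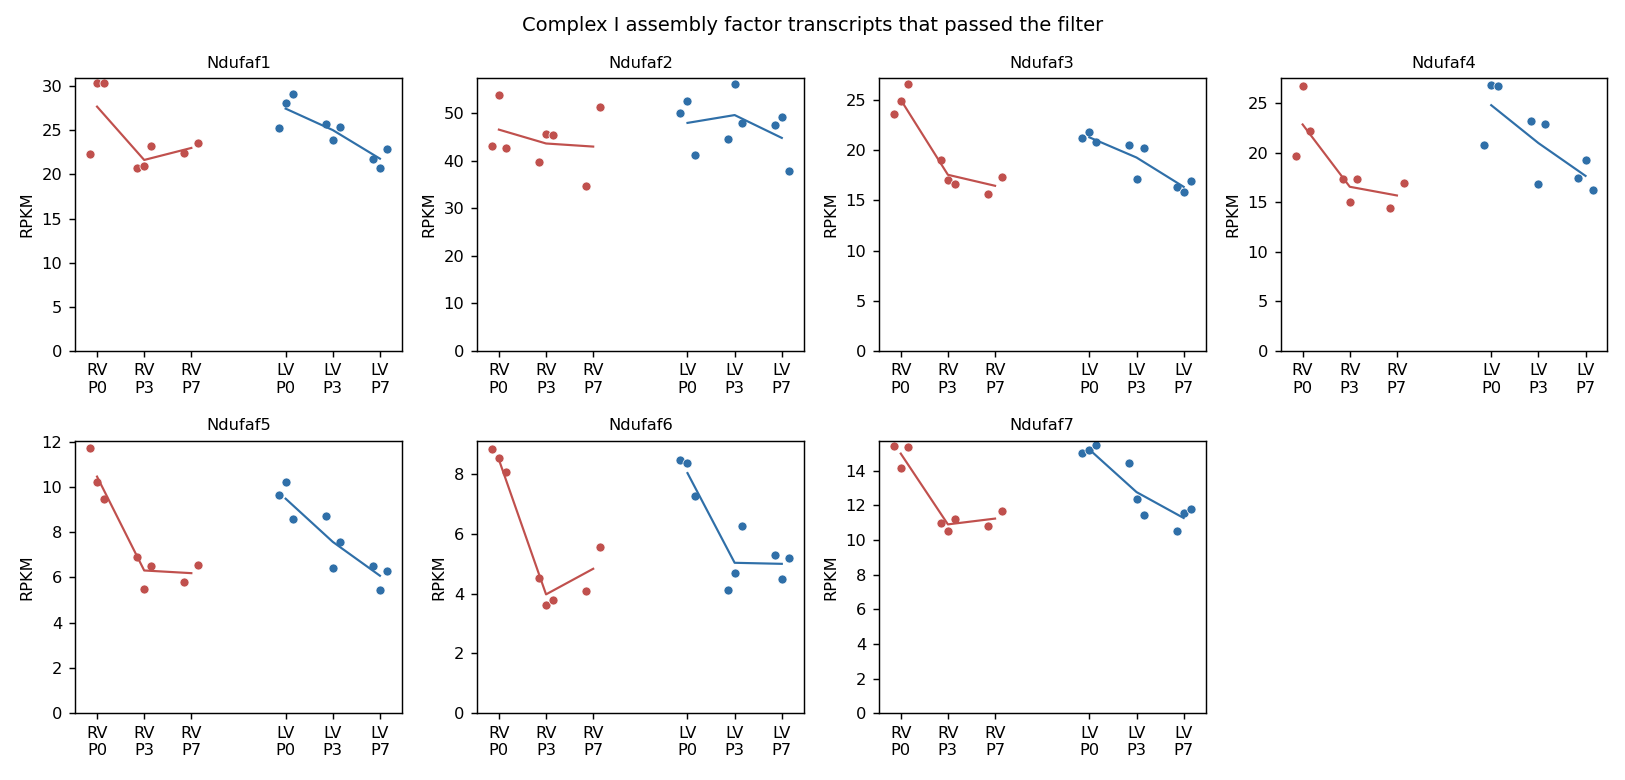
RPKM (vertical axes, from 0) of the 7 complex I assembly factor genes that passed the filter, by chamber and age. Points are libraries and lines join group means; in Ndufaf3, Ndufaf4, Ndufaf5, Ndufaf6 and Ndufaf7 every P7 library lies below every P0 library of its chamber, while Ndufaf2 overlaps. Values are on the deposited scale; after upper-quartile scaling 3 of the 7 in the RV and 1 in the LV were called lower.

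In complex II the calls on the deposited scale left out the flavoprotein, while 46.1% (RV) and 53.0% (LV) of all entries fell. Sdhb, the iron-sulfur subunit, and the anchors Sdhc and Sdhd fell in the LV on the deposited scale, and Sdhb and Sdhd fell in the RV. Sdha, the flavoprotein that oxidizes succinate, was not called in either chamber. Sdhb stood at 855, 897 and 979.6 RPKM at P0, 620.5, 641 and 636 RPKM at P3 and 691 and 744 RPKM at P7 in the RV (log2 -0.34 ± 0.10 (SE), adjusted p = 0.00764). Levels in the LV were 727, 852 and 832 RPKM at P0, 747, 709 and 674 RPKM at P3 and 699.7, 642 and 708 RPKM at P7 (log2 -0.23 ± 0.09 (SE), adjusted p = 0.0298). Its P7 libraries lay below all P0 libraries in both chambers. Sdhd stood at 365, 350.2 and 347 RPKM at P0, 275, 271 and 281 RPKM at P3 and 272 and 315 RPKM at P7 in the RV (log2 -0.27 ± 0.10 (SE), adjusted p = 0.0323). The level of Sdhd was 315, 356 and 308 RPKM at P0, 352, 279 and 287 RPKM at P3 and 272, 258 and 265 RPKM at P7 in the LV (log2 -0.30 ± 0.09 (SE), adjusted p = 0.00958). Sdhc stood at 314, 323 and 308 RPKM at P0, 253, 281 and 265 RPKM at P3 and 297 and 266 RPKM at P7 in the RV (log2 -0.17 ± 0.11 (SE), adjusted p = 0.193). LV libraries gave 321, 336 and 292 RPKM at P0, 272, 283 and 263 RPKM at P3 and 306, 232 and 260.3 RPKM at P7, with 1 P7 library inside the P0 range (log2 -0.25 ± 0.10 (SE), adjusted p = 0.0263). None of the 5 calls held after upper-quartile scaling, where the LV values turned to 0.12 for Sdhb, 0.10 for Sdhc and 0.06 for Sdhd. Sdha stood at 68.5, 84.3 and 88.7 RPKM at P0, 86.5, 89.9 and 90.7 RPKM at P3 and 83.2 and 92.8 RPKM at P7 in the RV. The level of Sdha was 71.1, 86.9 and 79.6 RPKM at P0, 100.3, 86.3 and 94.2 RPKM at P3 and 81.1, 82.1 and 77.0 RPKM at P7 in the LV. Its libraries of P7 and P0 overlapped in both chambers (log2 0.13 ± 0.11 (SE), adjusted p = 0.314 in the RV and log2 0.02 ± 0.10 (SE), adjusted p = 0.869 in the LV). After upper-quartile scaling Sdha was called higher in both (0.46 and 0.37), beside 19.8% (RV) and 24.4% (LV) of all entries. The difference between Sdha and the other subunits was not tested as a ratio.

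The calls of complex III depended on the scaling. On the deposited scale 1 of its 8 members rose and 1 fell in the RV, and 1 rose and none fell in the LV, whereas upper-quartile scaling called 3 higher in the RV and 7 in the LV and none lower, beside 19.8% and 24.4% of all entries called higher. Uqcrc1, a core protein, stood at 392, 476 and 496 RPKM at P0, 406, 441 and 412 RPKM at P3 and 588 and 536 RPKM at P7 in the RV, both P7 libraries above all others (log2 0.31 ± 0.12 (SE), adjusted p = 0.0295). The call was lost without RV P0 replicate 1, without RV P7 replicate 1, without the libraries low in Nnt, with no filter and with only the groups compared in the fit. In the LV it stood at 414, 465 and 421 RPKM at P0, 439, 470.0 and 445 RPKM at P3 and 569, 441 and 515 RPKM at P7, with overlap (log2 0.22 ± 0.10 (SE), adjusted p = 0.0663). Uqcrc2, the other core protein, gave -0.05 in the RV and -0.04 in the LV, uncalled, and turned to 0.28 and 0.31, called, after upper-quartile scaling. Uqcrfs1, the Rieske iron-sulfur protein, gave -0.11 in the RV and 0.04 in the LV, uncalled on the deposited scale.

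Of the small subunits of complex III, Uqcrq stood at 323, 390.1 and 315 RPKM at P0, 478, 462 and 423 RPKM at P3 and 425, 396 and 439 RPKM at P7 in the LV, where all P7 libraries lay above all P0 libraries (log2 0.30 ± 0.09 (SE), adjusted p = 0.00768). Its RV libraries were 439, 429 and 439 RPKM at P0, 378, 412 and 397 RPKM at P3 and 414 and 448 RPKM at P7, with overlap (log2 -0.02 ± 0.10 (SE), adjusted p = 0.895). Without the libraries low in Nnt the LV call was lost. Uqcr11 gave log2 0.12 ± 0.17 (SE), adjusted p = 0.567 in the RV and log2 0.28 ± 0.15 (SE), adjusted p = 0.106 in the LV. With the replicate number as a block the LV change was log2 0.28 ± 0.11 (SE), adjusted p = 0.0295. That block joins same-numbered libraries of different ages, whose residual correlations were only -0.07 to 0.18. Uqcrh, the hinge protein between cytochrome c1 and cytochrome c, fell in the RV (log2 -0.38 ± 0.13 (SE), adjusted p = 0.0238) and gave 0.01 in the LV; the RV call was lost after upper-quartile scaling (-0.05). Uqcr10 gave -0.38 in the RV and -0.29 in the LV, uncalled.

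Complex V held the member with the largest fall, Atp5md. On the deposited scale none of its 17 members rose and 7 fell in the RV, and 1 rose and 3 fell in the LV, where 46.1% (RV) and 53.0% (LV) of all entries fell. After upper-quartile scaling 3 rose and 2 fell in the RV and 8 rose and 1 fell in the LV, beside 19.8% and 20.6% of all entries in the RV and 24.4% and 25.3% in the LV. In the catalytic head, Atp5a1 gave 0.06 in the RV and -0.08 in the LV, Atp5b -0.06 and -0.11, and the central shaft subunit Atp5c1 0.08 and 0.12, all uncalled on the deposited scale. Atp5h, subunit d of the peripheral stalk, gave 0.13 in the RV and 0.18 in the LV, uncalled.

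The 3 genes of the c ring, Atp5g1, Atp5g2 and Atp5g3, encode the same mature protein behind different targeting peptides. Because 3 genes feed 1 subunit, the 100 bases before the start of each are shown, read from the RefSeq promoter table on GRCm38.p6, 5' to 3' on the gene's strand, with matches to the motifs named further on in capitals.
Atp5g1 promoter, chr11:96075632-96075731, minus strand: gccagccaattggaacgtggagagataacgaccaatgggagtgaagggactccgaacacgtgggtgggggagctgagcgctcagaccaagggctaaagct
Atp5g2 promoter, chr15:102671048-102671147, minus strand: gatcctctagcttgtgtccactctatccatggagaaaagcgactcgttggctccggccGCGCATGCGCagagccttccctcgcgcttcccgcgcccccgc
Atp5g3 promoter, chr2:73911327-73911426, minus strand: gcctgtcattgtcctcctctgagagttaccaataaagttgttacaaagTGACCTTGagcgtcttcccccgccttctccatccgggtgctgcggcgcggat
The capitals mark a match to the nuclear respiratory factor 1 motif (GCGC, any base, then TGCGC) in Atp5g2, and on the other strand a match to CAAGGTCA, the letters searched for estrogen-related receptors, in Atp5g3. These windows hold no match in Atp5g1. The longer windows counted further on, 250 bases before to 50 after a start, also hold a nuclear respiratory factor 1 match in Atp5g3. They hold no match in Atp5g1. Where RefSeq lists several starts for a gene, the first was used. The Atp5g3 window lies inside the span of its gene (chr2:73908447-73912464), and the Atp5g1 window lies partly inside its own. A match is a string of letters and says nothing of binding in these hearts.

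Atp5g1 stood at 271, 357 and 298 RPKM at P0, 379, 365 and 359 RPKM at P3 and 438, 378 and 431 RPKM at P7 in the LV, all P7 libraries above all P0 libraries (log2 0.44 ± 0.10 (SE), adjusted p = 0.000746). The call was kept under every alternative tried. The RV had 344, 391 and 372 RPKM at P0, 319.7, 342 and 342 RPKM at P3 and 403 and 435 RPKM at P7, where the P7 libraries were also the highest (log2 0.18 ± 0.11 (SE), adjusted p = 0.158). Atp5g2 fell in both chambers on the deposited scale, at 882, 742 and 683 RPKM at P0, 694, 707 and 701 RPKM at P3 and 589.6 and 593 RPKM at P7 in the RV (log2 -0.37 ± 0.11 (SE), adjusted p = 0.00748). Its LV libraries were 752, 781 and 649.6 RPKM at P0, 756, 707 and 731 RPKM at P3 and 596, 567 and 609 RPKM at P7 (log2 -0.30 ± 0.10 (SE), adjusted p = 0.0121). After upper-quartile scaling its changes were -0.04 in the RV and, with the sign turned, 0.06 in the LV. Atp5g3 stood at 959, 1097 and 1161 RPKM at P0, 744, 889.7 and 807 RPKM at P3 and 608 and 877 RPKM at P7 in the RV, where P7 lay below P0 (log2 -0.55 ± 0.15 (SE), adjusted p = 0.00411). The LV had 767, 938 and 891 RPKM at P0, 902, 840.4 and 746 RPKM at P3 and 859.8, 719.9 and 715 RPKM at P7, with overlap (log2 -0.18 ± 0.13 (SE), adjusted p = 0.239). The RV call was lost after upper-quartile scaling (-0.22) and without RV P7 replicate 1.

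The balance among the 3 entries does not depend on the scaling of a library. The Atp5g1 entry made up 16.7% ± 0.90 (SD) of their summed RPKM at RV P0, 18.1% ± 0.44 at RV P3 and 24.0% ± 1.65 at RV P7. In the LV it made up 16.2% ± 1.03, 19.1% ± 0.47 and 23.5% ± 0.97 at the same ages. The libraries ranged from 22.9% to 25.2% at RV P7, against 15.8% to 17.5% at RV P0, and from 22.7% to 24.6% at LV P7, against 15.1% to 17.2% at LV P0. Atp5g1 has a second, lower entry, which these shares leave out and which fell on the deposited scale between P7 and P0 (log2 -0.35 ± 0.10 (SE), adjusted p = 0.00706 in the RV and log2 -0.28 ± 0.09 (SE), adjusted p = 0.0118 in the LV). It was not called after upper-quartile scaling (-0.03 in the RV and 0.07 in the LV, where the sign turned). With both entries summed, Atp5g1 made up 25.6% to 28.4% at RV P7, against 19.0% to 20.8% at RV P0, and 25.5% to 27.3% at LV P7, against 18.4% to 20.2% at LV P0. The P7 and P0 ranges lay apart in both chambers either way, and Atp5g3 remained the most abundant of the 3 by group mean in all 6 groups.

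**Figure D5:**
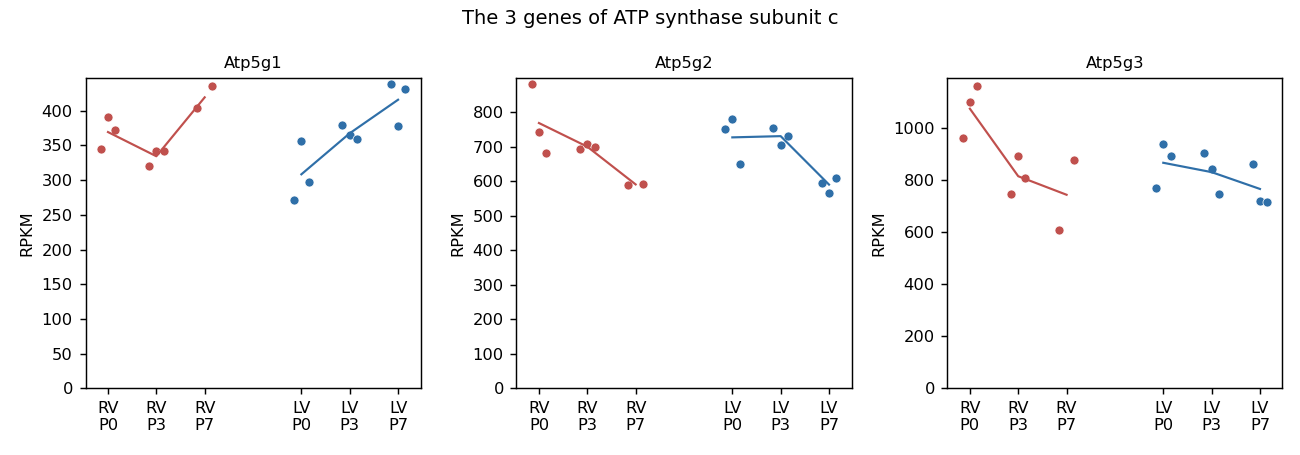
RPKM (vertical axes, from 0) of the 3 genes that encode subunit c of ATP synthase, by chamber and age. Points are libraries and lines join group means; Atp5g1 is highest at P7 in both chambers while Atp5g2 is lowest there on the deposited scale, where the LV change of Atp5g2 is log2 -0.30, against 0.06 after upper-quartile scaling.

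Other subunits of the ATP synthase membrane part stood at the low end. Atp5md, also called DAPIT and known for joining ATP synthase into dimers, had the lowest change of all members in both chambers and fell under all 3 scalings. It stood at 33.4, 20.7 and 34.9 RPKM at P0, 19.1, 22.2 and 19.2 RPKM at P3 and 10.5 and 11.1 RPKM at P7 in the RV (log2 -1.34 ± 0.23 (SE), adjusted p = 0.000107). Levels in the LV were 18.5, 22.3 and 28.8 RPKM at P0, 25.3, 20.0 and 21.4 RPKM at P3 and 6.53, 10.7 and 14.0 RPKM at P7 (log2 -1.12 ± 0.21 (SE), adjusted p = 0.000133). The P7 libraries lay below all P3 and P0 libraries, and the fall was 2.53-fold in the RV and 2.17-fold in the LV on the log2(RPKM + 1) scale. Its entry was low for a subunit and lies over Taf5 on the other strand, as given above. Atp5mpl, a proteolipid of the same membrane part, stood at 864, 787 and 824 RPKM at P0, 672, 685 and 679 RPKM at P3 and 464 and 554 RPKM at P7 in the RV (log2 -0.70 ± 0.13 (SE), adjusted p = 0.000229). LV libraries gave 625, 798 and 712 RPKM at P0, 935, 703 and 700.3 RPKM at P3 and 508, 595 and 589 RPKM at P7 (log2 -0.33 ± 0.12 (SE), adjusted p = 0.0193). After upper-quartile scaling its values were -0.37 in the RV, still called, and 0.02 in the LV. Atp5pb fell in the RV (log2 -0.63 ± 0.14 (SE), adjusted p = 0.000960) and gave -0.17 in the LV. This RV call was lost after upper-quartile scaling (-0.32).

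Ndufa4 and its paralog Ndufa4l2, known as a target of hypoxia-inducible factor, both rose in the LV. Ndufa4 stood at 1184, 1437 and 1267 RPKM at P0, 1552, 1523 and 1317 RPKM at P3 and 1694, 1849 and 1658 RPKM at P7 in the LV, all P7 libraries above all P0 libraries (log2 0.42 ± 0.11 (SE), adjusted p = 0.00236). In the RV it stood at 1605, 1374 and 1504 RPKM at P0, 1314, 1326 and 1352 RPKM at P3 and 1389 and 1729.6 RPKM at P7, with overlap (log2 0.06 ± 0.12 (SE), adjusted p = 0.710). Ndufa4l2 stood at 28.9, 32.5 and 31.1 RPKM at P0, 20.9, 24.2 and 24.3 RPKM at P3 and 51.1, 38.2 and 46.4 RPKM at P7 in the LV. Its LV course had a low point: P3 lay below P0 (log2 -0.40 ± 0.10 (SE), adjusted p = 0.00773), and P7 lay above both (P7 against P3, log2 0.93 ± 0.10 (SE), adjusted p = 5.14e-06; P7 against P0, log2 0.53 ± 0.10 (SE), adjusted p = 0.000220). Its RV libraries were 27.7, 30.3 and 33.3 RPKM at P0, 23.2, 23.6 and 22.7 RPKM at P3 and 34.6 and 30.4 RPKM at P7, again lowest at P3 (log2 -0.38 ± 0.10 (SE), adjusted p = 0.00928; P7 against P3, log2 0.47 ± 0.12 (SE), adjusted p = 0.0117). Its P7 libraries overlapped those of P0 (log2 0.09 ± 0.12 (SE), adjusted p = 0.515). The falls at P3 were lost after upper-quartile scaling (-0.25 in the RV and -0.24 in the LV), while the rises at P7 against P3 stayed called.

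The step of P3 against P0 differed in count between the chambers on the deposited scale. In the RV no member rose and 27 fell (9.72% of all entries rose and 21.5% fell), with a median of -0.23. In the LV 3 rose and 3 fell (7.26% and 20.6% of all entries), with a median of 0.01. After upper-quartile scaling 1 was higher and 11 lower in the RV (17.4% and 14.1% of all entries) and 17 higher and 1 lower in the LV (13.0% and 10.6%). Under all 3 scalings Atp5pb, Ndufaf3, Ndufaf5, Ndufaf6, Ndufc2 and Sdhb fell in the RV, and Ndufa1, Ndufv3 and Uqcrq rose and Ndufaf6 fell in the LV. The difference between the chambers at this step was not tested. Without RV P3 replicate 1 the RV count of falls was 16, and the number that rose in the LV was 8 without LV P0 replicate 2 and 1 without LV P0 replicate 1 or 3. Leaving out the libraries low in Nnt leaves 1 library at RV P3 and at LV P3. Fewer members then fell in the RV, and fewer rose or fell in the LV.

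The step of P7 against P3 had few calls. In the RV 3 rose (Atp5g1, Ndufa4l2 and Uqcrc1) and 2 fell (Atp5md and Atp5mpl), against 2.5% and 14.8% of all entries. In the LV Ndufa4l2 rose and 5 fell (Atp5g2, Atp5md, Atp5mpl, Ndufs4 and Ndufv1), against 6.56% and 27.9% of all entries. After upper-quartile scaling 8 rose and none fell in the RV (5.97% and 5.18% of all entries), and 8 rose and 1 fell in the LV (13.4% and 12.7%). The rises in both chambers and the fall of Atp5md in the LV held under all 3 scalings. On the deposited scale Atp5md had the largest change of this step in the LV (log2 -1.08 ± 0.21 (SE), adjusted p = 0.000935) and in the RV (log2 -0.84 ± 0.23 (SE), adjusted p = 0.0204). The RV call of Atp5md was lost after upper-quartile scaling (-0.66). After that scaling the LV change of Ndufa4l2 (1.12) was larger than that of Atp5md (-0.90). The RV calls rested on 2 libraries at P7: without RV P7 replicate 1 none was left in either direction. In the LV 5 rose and 11 fell without LV P3 replicate 2, 2 rose without LV P7 replicate 3, 2 fell without LV P3 replicate 1 and 3 fell without LV P7 replicate 2.

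Between the chambers no member was called at any age, over the ages together, or for the difference in the P7 against P0 change. Called were 0.141% of all entries at P0, 0.825% at P3, 0.159% at P7, 1.61% over the ages and 0.0375% for the difference of the changes. At an unadjusted p under 0.05 there were 17 members at P0, 6 at P3, 1 at P7, 2 over the ages and 10 for the difference of the changes, while 7.05%, 10.8%, 7.0%, 14.8% and 4.84% of all entries passed it in the same comparisons. The medians were 0.14 at P0, -0.11 at P3 and 0.00 at P7, RV against LV, and 67 of 74 members were higher in the RV at P0 while 64 of 74 were lower there at P3. The medians of all entries were -0.06, -0.02 and -0.03 at the same ages. At P0 13 members had all RV libraries above all LV libraries, against 2.99% of all entries, and at P3 17 had all RV libraries below all LV libraries, against 8.76%. Uqcrq was the member with the smallest unadjusted p at P0 (439, 429 and 439 RPKM in RV P0 and 323, 390.1 and 315 RPKM in LV P0; log2 0.35 ± 0.09 (SE), adjusted p = 0.275).

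Same-numbered RV and LV libraries of an age deviated together, and with the replicate number as a block a few members were called lower in the RV than in the LV. At P3 these were Ndufs4, an accessory subunit near the NADH site, with 118, 110.1 and 117 RPKM in RV P3 and 141, 147 and 143 RPKM in LV P3 (log2 -0.32 ± 0.09 (SE), adjusted p = 0.0341), and Ndufaf4 (log2 -0.31 ± 0.08 (SE), adjusted p = 0.0269). At P7 it was Ndufa4l2, with 34.6 and 30.4 RPKM in RV P7 and 51.1, 38.2 and 46.4 RPKM in LV P7 (log2 -0.44 ± 0.10 (SE), adjusted p = 0.0391). Over the ages it was Ndufaf4 (log2 -0.21 ± 0.05 (SE), adjusted p = 0.0126). All entries called with the block were 5.99% at P3, 1.0% at P7 and 8.65% over the ages. None passed the threshold without the block. The RV minus LV difference of the P7 against P0 changes was not fitted with RV and LV libraries paired within an age.

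A list of 18 genes outside the members held cytochrome c, the nuclear subunits of complex IV and cytochrome c1 of complex III. All passed the filter. On the deposited scale 1 rose and 6 fell in the RV and 4 rose and 3 fell in the LV between P7 and P0, with medians of -0.17 and -0.01; after upper-quartile scaling 4 and 11 were higher and 2 and 2 lower. Of all entries 46.1% (RV) and 53.0% (LV) fell on the deposited scale, and 19.8% and 24.4% were higher after upper-quartile scaling. Complex IV has isoform pairs in which one form is known from muscle and the other from liver and most tissues. Cox6a1, the general form, averaged 614 ± 27.0 RPKM at RV P7 and 1319 ± 115 RPKM at RV P0 (SD; log2 -1.10 ± 0.12 (SE), adjusted p = 7.28e-07). Cox6a2, the muscle form, averaged 3500.1 ± 197 RPKM at RV P7 and 2419 ± 634 RPKM at RV P0 (SD; log2 0.57 ± 0.20 (SE), adjusted p = 0.0213). In the LV the changes were log2 -1.18 ± 0.11 (SE), adjusted p = 3.84e-08 for Cox6a1 and log2 0.75 ± 0.18 (SE), adjusted p = 0.00124 for Cox6a2, and both kept their direction and call after upper-quartile scaling in both chambers. Cox8a fell in both chambers as well (log2 -0.83 ± 0.12 (SE), adjusted p = 1.22e-05 in the RV and log2 -0.91 ± 0.10 (SE), adjusted p = 7.10e-07 in the LV), also after upper-quartile scaling. These genes were picked from the list after their values were seen, and other isoform pairs of complex IV are not given.

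Assembly factors of the complexes outside the naming rule, a list of 19 genes with 18 tested, had no gene that rose, and 9 fell in the RV and 10 in the LV, with medians of -0.37 and -0.30. Of all tested entries 46.1% fell in the RV and 53.0% in the LV, with medians of -0.29 and -0.31, so these counts lie near the background. After upper-quartile scaling 1 rose and 2 fell in the RV and 3 rose and 1 fell in the LV. On that scale 19.8% of all entries were higher and 20.6% lower in the RV, and 24.4% and 25.3% in the LV. Atpaf2, which chaperones the alpha subunit of ATP synthase, averaged 16.1 ± 0.858 RPKM at RV P7 and 24.2 ± 1.71 RPKM at RV P0 (SD; log2 -0.55 ± 0.09 (SE), adjusted p = 9.21e-05) and changed by log2 -0.55 ± 0.08 (SE), adjusted p = 1.82e-05 in the LV. Of 12 regulators of mitochondrial genes, 7 passed the filter, and 1 rose and 3 fell in the RV and 1 rose and 4 fell in the LV (upper-quartile scaling gave 1 and 0 in the RV and 1 and 1 in the LV), beside 46.1% and 53.0% of all entries that fell on the deposited scale. Perm1, a muscle regulator induced by PGC-1, was the one that rose, at 26.5 ± 2.16 RPKM at RV P7 and 14.9 ± 4.06 RPKM at RV P0 (SD; log2 0.82 ± 0.18 (SE), adjusted p = 0.00112), with log2 0.77 ± 0.16 (SE), adjusted p = 0.000500 in the LV, and it was called under upper-quartile scaling too. The Esrrb, Esrrg, Nrf1, Gabpb1 and Ppara entries were under 1 RPKM in every library.

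Promoters of 63 members could be matched in the RefSeq table, which gives 250 bases before to 50 after a gene's start for 27025 genes. On either strand, the nuclear respiratory factor 1 motif was found in 17 of the 63 (27.0%), against 4.78% of all promoters, CCGGAAG (ETS factors such as GABPA) in 15 (23.8%, against 9.12%), AAGATGGC (YY1) in 10 (15.9%, against 2.88%) and CAAGGTCA in 4 (6.35%, against 1.53%). Complex by complex, the nuclear respiratory factor 1 letters were in 7 of 32 promoters of complex I subunits, 2 of 3 of complex II, 1 of 5 of complex III and 5 of 15 of complex V. Sdhd, which fell on the deposited scale, carries both kinds of letters in the 100 bases before its start and is shown as an example.
Sdhd promoter, chr9:50603850-50603949, minus strand: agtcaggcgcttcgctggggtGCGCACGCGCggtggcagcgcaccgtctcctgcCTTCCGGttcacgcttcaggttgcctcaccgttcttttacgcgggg
The capitals mark the nuclear respiratory factor 1 motif (first run, read on the other strand) and CCGGAAG (second run, read on the other strand). No motif was set against the changes.

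Markers of other cell types moved with age beside these results. All 5 endothelial markers were called higher at LV P7 than at LV P0 and 4 of 5 at RV P7 than at RV P0, with a summed level of 266.6 RPKM in both libraries of RV P7, 164 to 203 at RV P0, 345 to 392 at LV P7 and 167 to 196 at LV P0. Of 4 atrial markers 3 were tested and all 3 fell in each chamber, with sums of 56.2 to 178 RPKM at RV P7, 843 to 1185 at RV P0, 208 to 320.2 at LV P7 and 983 to 1229.9 at LV P0. Sln was under 1 RPKM in every library. The 6 cardiomyocyte markers summed to 12331 to 14521 RPKM at RV P7, 12872 to 18317 at RV P0, 11659 to 12571 at LV P7 and 14492 to 16594 at LV P0, with 2 called higher and 2 lower in each chamber. The 6 erythroid markers were lowest at P3. They summed to 1281 to 2922 RPKM at P0, 418 to 609 at P3 and 1113 to 1135 at P7 in the RV, and to 1571 to 2409, 527 to 537 and 1438 to 1888 RPKM at the same ages of the LV. The 6 fibroblast markers summed to 481 to 568 RPKM at RV P7, 299.6 to 458 at RV P0, 439 to 521 at LV P7 and 337 to 525 at LV P0, with Pdgfra under 1 RPKM. The 4 smooth muscle and pericyte markers summed to 569.9 to 687 RPKM at RV P7, 622 to 778 at RV P0, 467 to 493 at LV P7 and 625 to 728 at LV P0, with Myh11 and Pdgfrb under 1 RPKM. The other 2 were tested and went opposite ways: on the deposited scale 1 was called higher and 1 lower at P7 than at P0 in each chamber. Of the 4 macrophage markers 3 were listed, with sums of 25.1 to 28.9 RPKM at RV P7, 12.9 to 15.9 at RV P0, 24.2 to 30.3 at LV P7 and 14.6 to 18.7 at LV P0. Of the 2 brown fat markers, Ucp1 was under 1 RPKM in every library, while Cidea was called higher at P7 than at P0 in both chambers (log2 1.23 ± 0.12 (SE), adjusted p = 1.68e-07 in the RV and log2 1.41 ± 0.11 (SE), adjusted p = 3.29e-09 in the LV), also after upper-quartile scaling. They summed to 10.1 to 13.7 RPKM at P0, 29.2 to 34.3 at P3 and 25.8 to 31.1 at P7 in the RV, and to 9.65 to 10.4, 27.7 to 33.5 and 28.1 to 28.8 RPKM at the same ages of the LV. The part of these cell types in the results was not tested, and in bulk tissue fewer cells of a type and less RNA per cell cannot be told apart.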

How the data were processed

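Total RNA was sequenced from 17 ventricle samples. The deposited RPKM values came from the authors; the unit is inferred from the values, which are whole reads per length and library size. Per the submitters' processing notes, reads were aligned with STAR 2.4.0j to mm10; the sources used here do not give the counting tool, the annotation or the handling of shared reads. For a gene with several entries, the one with the highest mean was used. Entries with at least 1 RPKM in 2 libraries (10668 of 20624) were fitted as log2(RPKM + 1) with limma 3.58.1 (R 4.3.3) on all 17 libraries, with 6 group means, a trended prior and Benjamini-Hochberg adjustment over all tested entries in each of 11 comparisons. The fit was tested on simulated data. Tables and figures used Python 3.11.15, numpy 2.4.6, pandas 2.3.3 and matplotlib 3.10.9.

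The members and lists were chosen with earlier results of these data known. Named with values were all complex II genes, catalytic core subunits, isoform sets, the highest and lowest changes of each complex and of the assembly factors, and members left out by the filter; other genes named were chosen after their values were seen, and a gene of this rule is not reported here. Same-numbered RV and LV libraries of one age deviated together in all 8 pairs (residual correlation 0.27 to 0.59), so the numbers pair the chambers within an age, while across ages the 16 same-numbered pairs gave -0.07 to 0.18. Alternatives were upper-quartile scaling, scaling to equal totals over the listed entries, a pseudocount of 0.1, no filter, only the groups compared, the replicate block, and libraries left out.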

Additional observations from a re-analysis of the deposited data

How the results depend on the processing

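Scaling decided most counts. With upper-quartile scaling, P7 against P0 gave 21 higher and 5 lower in the RV and 40 higher and 2 lower in the LV; P3 against P0 gave 1 and 11 in the RV and 17 and 1 in the LV; P7 against P3 gave 8 and 0 in the RV and 8 and 1 in the LV. Scaling to equal totals over the listed entries gave, for P7 against P0, 25 and 6 in the RV and 36 and 3 in the LV. P3 against P0 gave 7 and 6 in the RV and 20 and 1 in the LV. P7 against P3 gave 5 and 1 in the RV and 7 and 2 in the LV. Of all 10668 entries, it called 2018 and 2039 (RV) and 2109 and 3206 (LV) for P7 against P0. For P3 against P0 it called 2543 and 921 (RV) and 1284 and 1016 (LV). For P7 against P3 it called 370 and 1025 (RV) and 985 and 1871 (LV). Under upper-quartile and equal-total scaling, the sign of some members reversed for P7 against P0. In the RV these included Sdhd (log2 0.0525 and 0.0521), Uqcrc2 (0.28 and 0.28) and Uqcrq (0.31 and 0.31). In the LV they included Sdhb (0.12 and 0.0410), Sdhc (0.10 and 0.0194), Ndufs3 (0.12 and 0.0363) and Uqcrc2 (0.31 and 0.23). Under upper-quartile scaling alone, members that reversed in the LV included Sdhd (0.0586), Ndufv1 (0.26), Atp5mpl (0.0243) and Atp5g2 (0.0591). The list is not complete: Ndufv1 in the RV also turned after upper-quartile scaling, as given above. The cause was not tested.

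Fitting only the groups compared gave 0 higher and 16 lower for RV P7 against P0, 5 higher for RV P7 against P3 and 2 higher for LV P7 against P3. Without a filter, LV P3 against P0 gave 1 higher and RV P7 against P3 gave 0 lower. Without the libraries low in Nnt, fewer members were called in the comparisons of ages. The lone library then left in a group is assumed to vary like the others, so these calls are not counted here. With the replicate block, RV P3 against P0 gave 1 higher and LV P3 against P0 gave 5 higher and 5 lower. LV P7 against P3 gave 2 higher with it. In these comparisons of ages the block joined same-numbered libraries across ages, which the residuals did not show to be paired. RV against LV, blocked within an age, gave 2 at P3, 1 at P7 and 1 over the ages. A pseudocount of 0.1 moved no count by more than 1.5 times.

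Leaving out single libraries gave 0 to 4 higher and 11 to 29 lower for RV P7 against P0, 6 to 16 and 10 to 14 for LV P7 against P0, 0 to 1 and 16 to 26 for RV P3 against P0, 1 to 8 and 2 to 4 for LV P3 against P0, 0 to 2 and 0 to 2 for RV P7 against P3, and 1 to 5 and 2 to 11 for LV P7 against P3. Chamber comparisons kept 0 calls. For LV P7 against P3, 5 were higher and 11 lower without LV P3 replicate 2, 2 higher without LV P7 replicate 3, 2 lower without LV P3 replicate 1 and 3 lower without LV P7 replicate 2; for RV P7 against P3, 1 was higher without RV P3 replicate 1 or 3, 1 lower without any one RV P3 library, and none in either direction without RV P7 replicate 1. RV P3 against P0 gave 1 higher without RV P0 replicate 3. RV P7 has 2 libraries, which limits every result that rests on it.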

Other observations

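Ndufv3 and Atp5g1 had a second listed entry whose share of the gene moved with age. For Ndufv3 the entry not used above held 3.55% ± 0.27 (SD) of the summed RPKM of both at P0, 1.49% ± 0.14 at P3 and 1.80% ± 0.07 at P7 in the RV, and 4.24% ± 0.90, 1.95% ± 0.05 and 1.83% ± 0.30 at the same ages of the LV. All P3 and P7 libraries lay below all P0 libraries in both chambers. For Atp5g1 the second entry held 19.8% ± 0.60, 18.6% ± 1.75 and 14.5% ± 0.70 in the RV and 20.8% ± 2.44, 16.7% ± 1.80 and 13.6% ± 0.53 in the LV at P0, P3 and P7. Its P7 libraries lay below all P0 libraries in both chambers. No test was made of these shares, and the sources used here do not say how shared reads were assigned.

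Over the 74 tested members, the Pearson r of the RV against LV change with the log2 length recovered from the RPKM steps was -0.47 at P0, -0.32 at P3 and 0.24 at P7, so its sign was not the same at all ages. The RV minus LV difference of the P7 against P0 changes, which uses the same P0 libraries, had an r of 0.49. Members under 600 nucleotides had median RV against LV changes of log2 0.20 at P0, -0.11 at P3 and -0.04 at P7, and those of 600 or more 0.11, -0.11 and 0.03. The members share the same libraries, so these are descriptions across genes, which are not independent replicates.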
